A study of Mus musculus with 4 samples.

Results

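The 10 mouse genes described here are regulators of DNA methylation and members of the separate Asxl family. The former are Dnmt1, Uhrf1, Dnmt3a, Dnmt3b, Tet1, Tet2 and Tet3, and the latter are Asxl1, Asxl2 and Asxl3. These 10 genes were chosen by family and name, not by their expression. They make up 10 of the 42367 genes listed in any of the count tables. All 10 were found by their Ensembl identifier in each table. The RNA-seq data come from hematopoietic stem cells (HSCs) of mice labelled Gfi1b WT and Gfi1b KO. The study asked how loss of Gfi1b, a transcriptional repressor that recruits histone-modifying enzymes, changes gene expression in these cells. HSCs were sorted as Lin- cKit+ Sca1+ Cd48- CD150+ cells from the marrow of tibiae, femora and humeri, and a second population was sorted as CD41low/CD9low HSCs. Neither CD41 nor CD9 is named among the labelled sort markers of the first population, although it is called CD41+/CD9+ in the results of the study, so it is not settled here whether the second is a subset of the first. There was 1 library per genotype and population, which gives 4 libraries.

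KO mice carried Gfi1b fl/fl alleles and Rosa-CreER, a tamoxifen-dependent Cre recombinase expressed from the Rosa26 locus, so that deletion is not limited to HSCs or to blood cells. By the study's methods, the WT controls were Rosa-Cre Gfi1b wt/fl mice that also received tamoxifen. Cre and tamoxifen were then common to both genotypes, and the controls had 1 floxed allele. On that account the floxed allele of the controls could be deleted too. Cells labelled WT may thus have had only 1 intact Gfi1b allele, which was not checked here. The description deposited with the data instead names floxed mice with or without ROSA-Cre. The strain is given as C57Bl6, and the age of the mice is not given in the sources used here. By the methods, marrow of several mice was pooled per genotype before sorting, so that the 2 populations of a genotype came from the same pool of animals and are not independent samples of it. No difference between genotypes within a population therefore has a replicate check, and the intervals given with ratios cover counting error only. In sorted bulk cells, fewer cells that express a gene and less RNA per cell cannot be told apart.

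In mammals, Dnmt1 copies CpG methylation onto the new DNA strand after replication, and Uhrf1 brings Dnmt1 to hemimethylated sites. Dnmt3a and Dnmt3b methylate DNA de novo, whereas the Tet dioxygenases oxidise 5-methylcytosine and so start its removal. Asxl proteins are cofactors of the deubiquitinase Bap1, which acts on histone H2A marked by Polycomb. Dnmt3a, Tet2 and Asxl1 are best known in blood as the genes most often mutated in clonal hematopoiesis.

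The HSC libraries were deeper, with 50781007 reads on genes in WT and 41690708 in KO, than those of CD41low/CD9low HSCs, with 12732079 in WT and 19123185 in KO. Levels are given as CPM, counts scaled to these totals, and the smallest count taken as detected, 3, equals 0.059 CPM in the deepest and 0.236 CPM in the shallowest library. Gfi1b, the targeted gene, had 9256 counts in WT HSCs and 49910 in KO HSCs, and 611 and 9741 counts in WT and KO CD41low/CD9low HSCs. Its normalised count was thus 6.66 times (95% counting interval 6.51 to 6.81) and 10.6 times (9.79 to 11.5) as high in the KO as in the WT library. These counts cover the whole gene and do not separate the deleted exons, so they do not check the deletion. Their direction is opposite to what the label KO alone would give. The study reports that expression of the floxed exons was absent in HSCs after tamoxifen. It also describes repression by Gfi1b of its own promoter in reporter assays. The part of either in these whole-gene counts was not tested. WT and KO below name the libraries by their labels, whose genotype field reads Gfi1b while their titles read Gfi1. All 10 HSC markers of a fixed list were detected in all libraries, with a summed level of 2569 to 3168 CPM. The list includes Kit, Ly6a and Slamf1, the genes of the sort markers cKit, Sca1 and CD150, so the sort itself selected for these. Single markers differed between WT and KO in both directions. The normalised count of Procr was 2.20 and 1.52 times as high in KO in HSCs and CD41low/CD9low HSCs, and that of Hlf 0.67 and 0.75 times.

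The promoters of Uhrf1, Dnmt1 and Asxl1 are shown because each holds an E2F octamer, a sequence class known from genes that are transcribed in S phase. RefSeq (GRCm38.p6) windows of 300 bases, from 250 before to 50 after a transcript start, were available for 9 of the 10 members, with 14 windows in all. On either strand, TTCCCGCC occurred in 2.19% and TTTGGCGC in 0.514% of the 32851 windows of all genes. The stretches below run 5′ to 3′ on the gene's strand, at chr17:56303221-56303320 (+), chr9:20952574-20952603 (-) and chr2:153345580-153345679 (+), with the octamer in capitals.
Uhrf1: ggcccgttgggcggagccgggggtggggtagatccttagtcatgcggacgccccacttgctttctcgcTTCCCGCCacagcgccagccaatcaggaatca
Dnmt1: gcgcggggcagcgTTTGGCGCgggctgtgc
Asxl1: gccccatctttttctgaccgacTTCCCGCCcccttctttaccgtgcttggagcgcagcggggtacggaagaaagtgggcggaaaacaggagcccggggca
The octamer of Uhrf1 began 48 bases before a transcript start, and that of Asxl1 began 228 bases before it. That of Dnmt1, in 1 of its 3 windows, began at base 34 counted from the transcript start. The octamers do not overlap each other. AATC, the core of the sequence bound by Gfi1 proteins, was present in 9 of the 14 member windows, and in 73.1% of all windows. The member windows held 2 to 57 CpGs, and 13 of 14 were above the median of 7 CpGs over all windows. The exception was a Dnmt1 window with 2 CpGs. These matches describe the sequence, and binding was not measured in these libraries.

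Per kb of merged exon, Dnmt1 was the most abundant member in each of the 4 libraries and Asxl3 was the least abundant. The level of Dnmt1 was 79.1 and 65.4 CPM per kb in WT and KO HSCs, and 75.2 and 64.1 CPM per kb in WT and KO CD41low/CD9low HSCs. Uhrf1 came next, at 44.0, 29.4, 60.8 and 37.0 CPM per kb in the same order of libraries. Asxl1 (19.5 to 23.8 CPM per kb), Dnmt3b (15.7 to 21.0) and Dnmt3a (11.7 to 14.1) then followed in that order in each library, although Asxl1 and Dnmt3b had overlapping counting intervals in WT CD41low/CD9low HSCs. The order depends on the length used. Merged exons cover all annotated transcripts of a gene, 16642 bases for Dnmt3a and 5106 for Dnmt3b, and the transcripts expressed were not determined. Without division by length, Dnmt3a was above Dnmt3b in each library, at 234.4 against 107.2 CPM in WT HSCs. Asxl2 and the Tet genes lay between 5.13 and 11.7 CPM per kb. Asxl2, Tet1, Tet3 and Tet2 descended in that order in both HSC libraries, where only Tet1 and Tet3 in the WT library overlapped. In CD41low/CD9low HSCs Tet3 was the highest of these 4 genes in both libraries, while Tet2 and Tet1 overlapped in the WT library, and so did the neighbours Tet2, Asxl2 and Tet1 in the KO library.

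**Figure D1:**
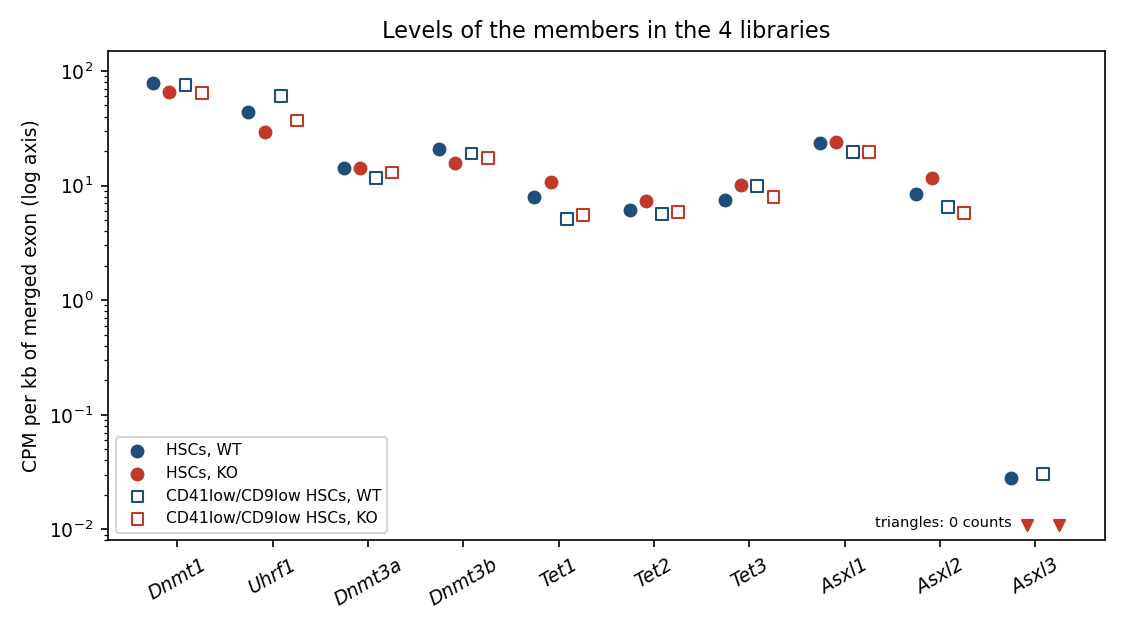
Level of each member in CPM per kb of merged exon (log axis), with 1 point per library, filled circles for HSCs, open squares for CD41low/CD9low HSCs, blue for WT and red for KO. Dnmt1 lies between 64.1 and 79.1 CPM per kb in the 4 libraries, while Asxl3 has 22 and 6 counts in the WT libraries and 0 counts, drawn as triangles, in the KO libraries.

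The KO/WT ratios of the members were moderate. In the study, ratios above 1.5 and below 0.6 were used as cutoffs, and the same are used here, after leaving out genes that did not reach 10 counts in either library of the pair. Apart from Asxl3, none of the other 9 members passed either cutoff in either population, with ratios of 0.677 to 1.40 for HSCs and 0.609 to 1.11 for the CD41low/CD9low pair. Over all genes that passed the filter, 14.1% were above 1.5 and 10.3% below 0.6 in HSCs, and 13.5% and 12.0% in CD41low/CD9low HSCs. Many of these are genes of low count, however. The 9 members had at least 1009 counts in each library, and among genes with at least 1000 counts in 1 library of the pair only 6.34% were above 1.5 and 2.03% below 0.6 in HSCs, and 2.14% and 0.285% in CD41low/CD9low HSCs.

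KO/WT ratios in HSCs differed with exon length. The median log2 ratio of all genes went from -0.20 in genes of up to 1 kb of exon to 0.20 in genes over 8 kb, against -0.10 and 0.02 in CD41low/CD9low HSCs. Dnmt3a, Tet1, Tet2, Tet3 and Asxl2 have between 15457 and 16870 bases of merged exon, whereas Uhrf1 has 4259 and Dnmt3b 5106 bases. A length-corrected ratio, divided by the running median of 500 genes of similar exon length, is therefore given beside the ratio itself.

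**Figure D2:**
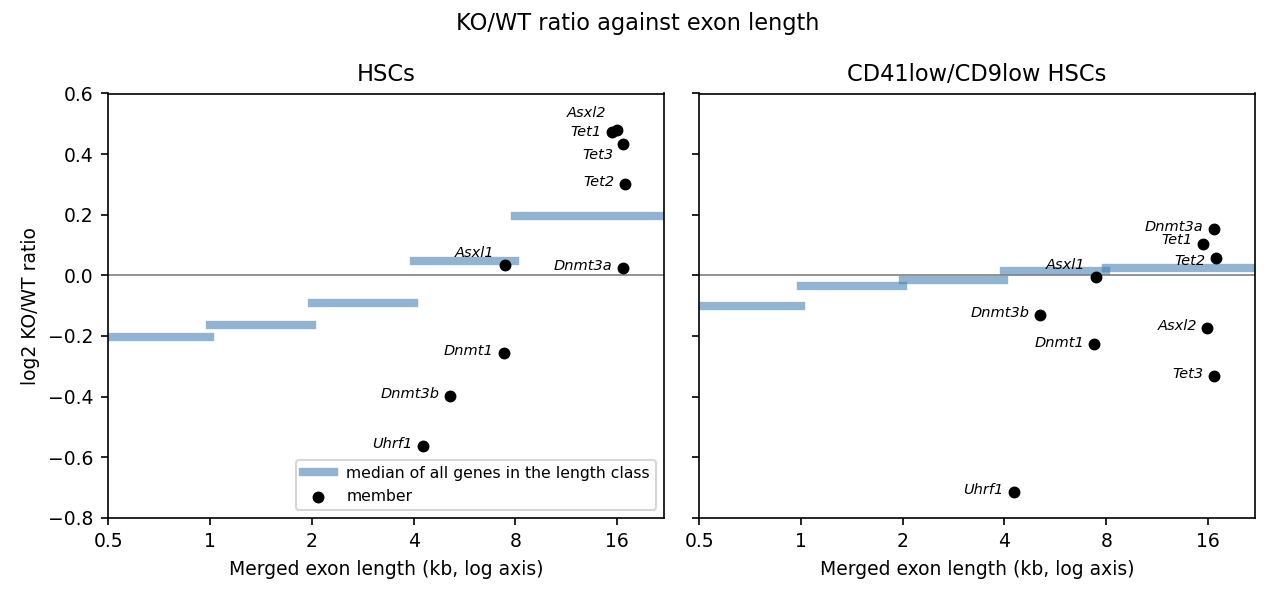
log2 KO/WT ratio of 9 members (points) against merged exon length (kb, log axis) in HSCs (left) and CD41low/CD9low HSCs (right), with the median of all genes in each of 5 length classes as bars. In HSCs the bars rise from -0.20 to 0.20 with length and the Tet genes and Asxl2 lie at the long end, whereas Uhrf1 lies below the bars in both populations.

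Among the maintenance genes, Uhrf1 (chr17:56303321-56323486) was lower in KO in both populations. Its level was 187.6 CPM (9525 counts) in WT HSCs and 125.4 CPM (5227 counts) in KO HSCs, and 259 CPM (3297 counts) and 157.5 CPM (3011 counts) in WT and KO CD41low/CD9low HSCs. Both KO libraries were below both WT libraries. The KO/WT ratio was 0.677 (0.655 to 0.701) in HSCs and was 0.609 (0.579 to 0.640) in CD41low/CD9low HSCs, and 0.680 and 0.603 after length correction. Of genes with at least 1000 counts, 321 of 8444 (3.8%) had a lower ratio than Uhrf1 in HSCs and 15 of 4907 (0.3%) in CD41low/CD9low HSCs.

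For a genotype effect common to both populations, edgeR's quasi-likelihood test was run over the 4 libraries with a term for population, 1 residual degree of freedom and Benjamini-Hochberg adjustment over 14940 genes. Since the populations of a genotype share their pool of mice, the p-values do not measure the spread between animals. The residual degree of freedom holds the difference of the genotype effect between the populations. A gene with opposite directions in the populations, such as Tet3 or Asxl2 below, therefore adds to its own error in this test. In this test 80 genes (0.535%) rose and 46 (0.308%) fell in KO. Of the 9 members with enough counts, 1 fell and none rose. Uhrf1 fell by 0.64 on the log2 scale (SE 0.15, adjusted p = 0.0468, edgeR). This call lies close to the threshold of 0.05 and was lost with RLE normalization (adjusted p = 0.0614) and with a filter of at least 50 counts in 2 libraries (adjusted p = 0.0757), while it held with DESeq2 (adjusted p = 0.0126), with no filter (0.00227) and with exon length offsets (0.00556).

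Dnmt1 (chr9:20907209-20959888), the maintenance methyltransferase, was also lower in both KO libraries, but by less. It had 583.2 and 482.3 CPM in WT and KO HSCs, with 29617 and 20108 counts, and 554.6 and 473 CPM in WT and KO CD41low/CD9low HSCs, with 7061 and 9046 counts. The ratio was 0.838 (0.823 to 0.853) in HSCs and was 0.854 (0.828 to 0.881) in CD41low/CD9low HSCs, and 0.777 and 0.850 after length correction. Both KO libraries were again below both WT libraries, but the shared effect of -0.24 (SE 0.14) did not pass the test (adjusted p = 0.62, edgeR).

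Transcripts of S phase and proliferation were mostly lower in KO too, as were Uhrf1 and Dnmt1. Of 18 such genes 17 had a KO/WT ratio below 1 in HSCs and 18 in CD41low/CD9low HSCs, with median log2 ratios of -0.37 and -0.44, against -0.001 and 0.002 over all genes. Their summed level was 4185 and 3358 CPM in WT and KO HSCs, and 3433 and 2610 CPM in WT and KO CD41low/CD9low HSCs. The ratio of Uhrf1 lay within the range of this list in HSCs (0.578 to 1.02, with 3 of 18 genes lower than Uhrf1) and below it in CD41low/CD9low HSCs, where the list spanned 0.631 to 0.887. The ratio of Dnmt1 was less low than that of 13 of the 18 genes in HSCs and of 14 in CD41low/CD9low HSCs. In the 4-library fit 18 of the 18 effects were below 0, with a median of -0.41. With edgeR 10 of them had an unadjusted p under 0.05, against 1501 of all 14940 genes, and 0 were called. DESeq2 called 0 as well, but 3 fell with no filter and 4 with exon length offsets. Past the cutoff of 0.6 in HSCs were 2 of the 18, Ccne1 (0.578), which drives entry into S phase, and Cdk1 (0.594), the kinase of mitotic entry. Of all genes 10.3% were below 0.6 in HSCs, and 2.03% of those with at least 1000 counts, which Ccne1 did not reach. After length correction Ccne1 was at 0.620 and Cdk1 at 0.593. Neither was past the cutoff in CD41low/CD9low HSCs, at 0.7255 and 0.692. The part of the S phase transcripts in the ratios of Uhrf1 and Dnmt1 was not tested.

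**Figure D3:**
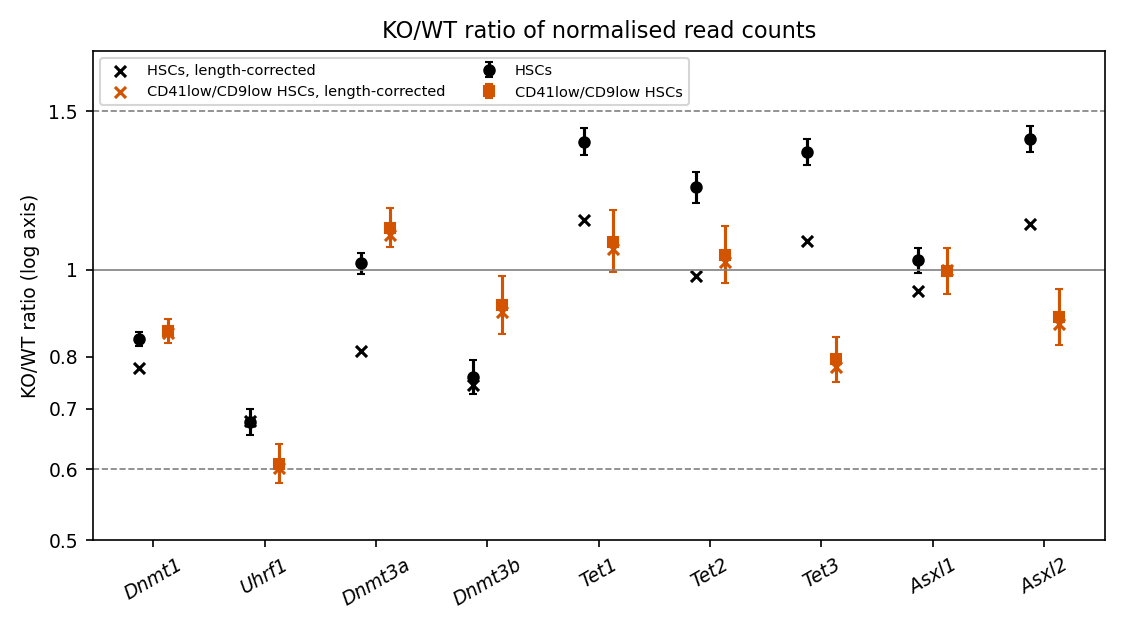
KO/WT ratio of normalised counts (log axis) for 9 members in HSCs (black circles) and CD41low/CD9low HSCs (orange squares), with the 95% counting interval as bars, the length-corrected ratio as a cross and the cutoffs of 1.5 and 0.6 dashed. Uhrf1 is lowest in both populations (0.677 and 0.609), and Tet3 and Asxl2 lie above 1 in HSCs and below 1 in CD41low/CD9low HSCs.

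The de novo enzymes differed from each other. Dnmt3a (chr12:3806007-3914443) had 234.4 and 235.1 CPM in WT and KO HSCs, and 194.4 and 216 CPM in WT and KO CD41low/CD9low HSCs. Its ratio in HSCs was 1.02 (0.990 to 1.04), with 11904 and 9803 counts, so that no difference beyond counting error was seen. After length correction it was 0.811, however, since genes of this length had a median ratio above 1. In CD41low/CD9low HSCs the ratio was 1.11 (1.06 to 1.17), with 2475 and 4131 counts, and 1.09 after length correction.

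Dnmt3b (chr2:153649450-153687730) had 107.2 and 80.35 CPM in WT and KO HSCs (5446 and 3350 counts), and 97.39 and 88.74 CPM in the CD41low/CD9low pair (1240 and 1697 counts). The KO library was the lower one in both pairs. The ratio was 0.759 (0.727 to 0.793) in HSCs and was 0.912 (0.847 to 0.983) in CD41low/CD9low HSCs, and length correction moved these to 0.745 and 0.896. The shared effects were 0.09 (SE 0.14, adjusted p = 0.95) for Dnmt3a and -0.27 (SE 0.16, adjusted p = 0.644) for Dnmt3b, and neither passed the test (edgeR).

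All 3 Tet genes were higher in the KO library of HSCs, and each of these ratios moved towards 1 or below it with the length correction. Tet1 (chr10:62804570-62908996) had 122.3 and 167.4 CPM (6210 and 6980 counts) in WT and KO HSCs, Tet2 (chr3:133463679-133545139) had 102.4 and 124.7 CPM (5201 and 5200 counts), and Tet3 (chr6:83362373-83459084) had 126.1 and 168 CPM (6402 and 7002 counts). The ratios were 1.39 (1.34 to 1.44) for Tet1, 1.23 (1.19 to 1.28) for Tet2 and 1.35 (1.31 to 1.40) for Tet3. Length correction lowered them to 1.14, 0.984 and 1.08, which took Tet2 to the other side of 1.

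In CD41low/CD9low HSCs Tet1 and Tet2 had ratios whose intervals included 1. Tet1 had 79.25 and 85.03 CPM (1009 and 1626 counts) in WT and KO, a ratio of 1.07 (0.993 to 1.16), and Tet2 had 95.82 and 99.46 CPM (1220 and 1902 counts), a ratio of 1.04 (0.967 to 1.12). Tet3, the Tet dioxygenase best known for its role in the zygote, was lower in KO. It had 166.6 CPM (2121 counts) in WT and 132.2 CPM (2529 counts) in KO, which gives a ratio of 0.795 (0.750 to 0.843) and 0.780 after length correction. Of 4907 genes with at least 1000 counts in this pair, 219 (4.5%) had a lower ratio than Tet3. In the 4-library fit the effects of Tet1 (0.29, SE 0.16, adjusted p = 0.594), Tet2 (0.18, SE 0.15, adjusted p = 0.816) and Tet3 (0.05, SE 0.17, adjusted p = 0.984) did not pass the test (edgeR).

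Asxl1 (chr2:153345829-153404007) had nearly equal levels in WT and KO. It had 175.5 and 177.3 CPM (8913 and 7392 counts) in WT and KO HSCs and 145.9 and 145.2 CPM (1858 and 2777 counts) in WT and KO CD41low/CD9low HSCs. The intervals of its ratios included 1 in both populations, with 1.02 (0.992 to 1.06) and 0.996 (0.939 to 1.06). Its length-corrected ratio was 0.946 in HSCs. Its exons overlap those of 2500004C02Rik on the other strand over 197 bases, or 2.65% of their length, and the strand setting of the counting is not given in the sources used here.

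Asxl2 (chr12:3426857-3506852) resembled Tet3 in having opposite directions in the populations. Its level was 134.8 and 185.7 CPM (6845 and 7742 counts) in WT and KO HSCs, and 103.8 and 91.88 CPM (1322 and 1757 counts) in WT and KO CD41low/CD9low HSCs. The ratio was 1.40 (1.35 to 1.44) in HSCs, which was 1.12 after length correction, and 0.886 (0.825 to 0.952) in CD41low/CD9low HSCs, which was 0.870 after correction. The shared effects of Asxl1 (0.01, SE 0.14, adjusted p = 0.993) and Asxl2 (0.16, SE 0.17, adjusted p = 0.882) did not pass the test (edgeR). The signs of the small effects of Dnmt3a, Tet2, Tet3, Asxl1 and Asxl2 turned with exon length offsets, under which all 5 lay between -0.13 and -0.003.

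Asxl3, the family member known mainly from the nervous system, was close to the limit of detection. It had 22 counts (0.433 CPM) in WT HSCs and 0 counts in KO HSCs, and 6 counts (0.471 CPM) in WT and 0 counts in KO CD41low/CD9low HSCs. A count of 0 allows up to 3 counts, or 0.072 CPM in KO HSCs and 0.157 CPM in KO CD41low/CD9low HSCs. Against this floor of 3 counts per library, the normalised count was at least 5.94-fold lower in KO than in WT HSCs, a bound that takes the 22 counts as exact. The 95% counting interval of the KO/WT ratio, which counts the error of both, reached from 0 to 0.225. Asxl3 passed the filter of 10 counts only through the library in which it was high, and did not pass it in CD41low/CD9low HSCs. In the 4-library fit it did not reach the filter, and with no filter it was not called (adjusted p = 0.805, edgeR).

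Marker transcripts of other cells differed between the WT and KO libraries of CD41low/CD9low HSCs, the pair in which Uhrf1 and Tet3 had their lowest ratios. Of 10 neutrophil and monocyte markers, 8 passed the filter there and 8 were below 0.6. Their summed level was 976.7 CPM in WT and 256.7 CPM in KO, against 393.4 and 477.7 CPM in WT and KO HSCs, and Ly86 had 0 counts in both CD41low/CD9low libraries. Of 9 erythroid markers 8 passed the filter in this pair, 5 were below 0.6 and 1 was above 1.5. Car1 had 55 counts in WT and 0 in KO, whereas Epor had 49 and 205 counts. The summed erythroid level was 880 CPM in WT and 772.3 CPM in KO, of which Car2 alone gave 761.9 and 704.6 CPM. In HSCs the summed erythroid level was 1105 CPM in WT and 584.1 CPM in KO, of which Car2 alone gave 922.1 and 446.7 CPM. There 3 of the 9 erythroid markers were below 0.6 and 2 were above 1.5. The part of these differences in the members' ratios was not tested.

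The same fit gave the difference between CD41low/CD9low HSCs and HSCs, in which 1231 genes (8.24%) were higher and 1876 (12.6%) lower. Tet1 and Asxl2 were the 2 of 9 members that were lower in CD41low/CD9low HSCs, and no member was higher. Tet1 differed by -0.86 on the log2 scale (SE 0.16, adjusted p = 0.000962, edgeR), and Asxl2 by -0.76 (SE 0.17, adjusted p = 0.00418, edgeR). For both genes each CD41low/CD9low library lay below each HSC library. By genotype, the ratio of CD41low/CD9low HSCs to HSCs was 0.620 (0.579 to 0.662) in WT and 0.486 (0.460 to 0.513) in KO for Tet1, and 0.736 (0.694 to 0.781) in WT and 0.474 (0.450 to 0.499) in KO for Asxl2. In KO, 20.4% of all genes had a ratio below 0.6, and in WT 19.7% did. The ratio between the populations differed with exon length too. Its median log2 went from 0.22 in genes of up to 1 kb of exon to -0.16 over 8 kb in WT. In KO it went from 0.35 to -0.35. Tet1 and Asxl2 are both over 8 kb, with log2 ratios of -0.69 and -0.44 in WT and -1.04 and -1.08 in KO.

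Both calls held with exon length offsets, where the effects became smaller, at -0.51 for Tet1 (adjusted p = 0.0121, edgeR) and -0.40 for Asxl2 (adjusted p = 0.0475, edgeR). Uhrf1 was the member with the highest ratio between the populations, at 1.32 (1.27 to 1.37) in WT and 1.20 (1.15 to 1.26) in KO, but its effect of 0.34 (SE 0.14) did not pass the test (adjusted p = 0.113, edgeR). Neither did that of Asxl1, at -0.34 (SE 0.14, adjusted p = 0.112, edgeR), nor those of Dnmt1, Dnmt3a, Dnmt3b, Tet2 and Tet3, which lay between -0.27 and -0.03 and, with exon length offsets, between 0.003 and 0.33. The ratio of Tet3 was 1.26 (1.20 to 1.33) in WT and 0.754 (0.720 to 0.789) in KO. Population cannot be told apart from library depth, nor from the different lists of genes on which the pairs were counted. Megakaryocyte markers, which include the gated CD41 (Itga2b) and Cd9, were at 1538 and 1773 CPM in WT and KO HSCs and at 492.5 and 515 CPM in WT and KO CD41low/CD9low HSCs, summed over 10 genes. Gp6 had 0 counts in both CD41low/CD9low libraries and Gp1bb in the WT one. Their part in the members' differences was not tested.

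Partners of the members were examined as lists by function. Of 11 methylation cofactors, which include the Uhrf1 paralog Uhrf2 and the chromatin remodeler Hells, 10 passed the filter, and Zfp57 was the one past a cutoff, in both populations. Of all genes, 14.1% were above 1.5 in HSCs and 13.5% in CD41low/CD9low HSCs. Zfp57, a zinc finger protein that maintains methylation at imprinted regions, had 767 and 1575 counts in WT and KO HSCs and 143 and 396 counts in WT and KO CD41low/CD9low HSCs. Its ratio was 2.53 (2.32 to 2.77) in HSCs and was 1.85 (1.52 to 2.25) in CD41low/CD9low HSCs. Zfp57 rose by 1.12 on the log2 scale in the shared fit (SE 0.25, adjusted p = 0.0379, edgeR). This call was lost with RLE normalization (adjusted p = 0.0568), with at least 50 counts in 2 libraries (0.0801) and with DESeq2 (0.0845), while it held with no filter (0.00187) and with exon length offsets (0.0099).

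Of 8 methyl-CpG readers, 0 passed a cutoff in either population, with median log2 ratios of 0.002 and -0.01. Of 13 demethylation partners that passed the filter and of 9 partners of Asxl and Bap1, Ogt was past a cutoff in HSCs and is in both lists. Ogt, the O-GlcNAc transferase that binds Tet proteins, had 28570 and 35593 counts and a ratio of 1.54 (1.51 to 1.56), which was 1.40 after length correction. Of 16 Polycomb genes Jarid2, a subunit of Polycomb repressive complexes, was above 1.5 in HSCs at 1.57 (1.53 to 1.62), and at 1.39 after length correction. Of 6 CXXC proteins, which bind unmethylated CpGs, the histone methyltransferase Kmt2a was above it at 1.83 (1.80 to 1.87), and at 1.46 after correction. Of all genes 14.1% were above 1.5 in HSCs, and 6.34% of genes with at least 1000 counts, so single genes past it in such lists are not unusual. None of these 3 genes was past a cutoff in CD41low/CD9low HSCs, where Ogt was at 1.25, Jarid2 at 1.14 and Kmt2a at 1.09. The reader, demethylation, Asxl and Bap1, Polycomb and CXXC lists held 51 genes in the genotype test. At the filter of 10 counts in 2 libraries, edgeR called 0 of these 51, and DESeq2 called 0 as well. With edgeR 6 of the 51 had an unadjusted p under 0.05, against 1501 of all 14940 genes. With no filter, Ogt (adjusted p = 0.0341, edgeR) and Kmt2a (adjusted p = 0.0253, edgeR) were called higher.

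**Figure D4:**
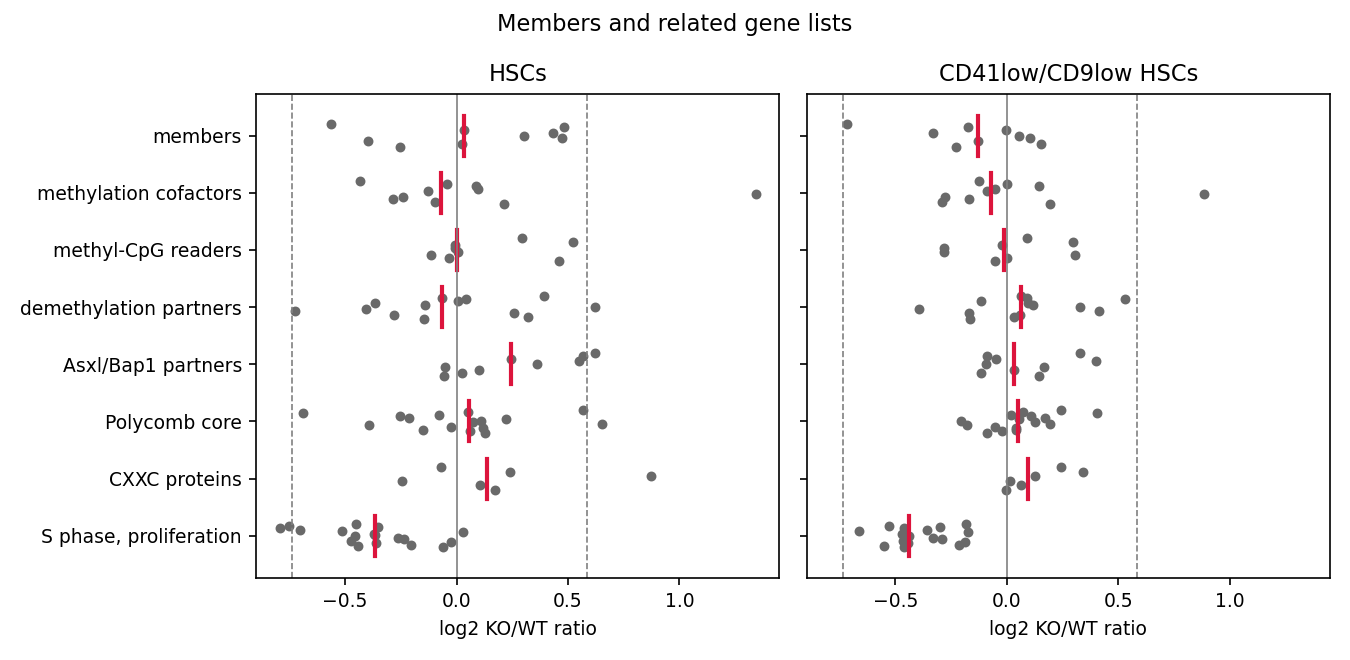
log2 KO/WT ratio of each gene (grey points) of 8 lists in HSCs (left) and CD41low/CD9low HSCs (right), with the median of each list as a red line and the cutoffs dashed, without Asxl3, whose KO count was 0. The S phase list has its median at -0.37 and -0.44, the members at 0.03 and -0.13, and Zfp57 is the cofactor at the far right in both populations.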

How the data were processed

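RNA of sorted HSCs and CD41low/CD9low HSCs was extracted with a magnetic bead kit, and libraries were made with the TruSeq Stranded mRNA kit. Per the labels, reads were aligned to mm10 with TopHat2 2.0.10 and handled with SAMtools and HTSeq, and DESeq is also named. The authors deposited raw counts per Ensembl gene, 1 table per library, without normalization. No HTSeq version, strand setting or annotation release is named; these are not given in the sources used here. The tables list 38293 genes for HSCs and 41214 for CD41low/CD9low HSCs, with 37140 in common. The closing lines of the tables were left out of the gene counts. For every 100 reads on genes, 60.1 to 105.3 were on no feature. Symbols, positions and merged exon lengths came from GENCODE M21 (GRCm38), which matched 40340 of 42367 identifiers.

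Size factors were taken per pair by the median of ratios, and the KO/WT ratio of scaled counts was given with the exact Clopper-Pearson 95% interval of the KO share of the counts. Depth sets this interval, so that it is widest in the shallower CD41low/CD9low pair. All 4 libraries were fitted with edgeR's quasi-likelihood test (population and genotype, TMM, at least 10 counts in 2 libraries, common BCV 0.255), with 1 residual degree of freedom per gene and a median of 15.69 prior degrees of freedom, so that p-values rest mostly on variance shared across genes. The fit and the intervals were tested on simulated data. For the fit, the simulated libraries were independent, had no population effect and held larger genotype changes than those fitted for the members. That run therefore does not show how the fit performs at the effect sizes seen here. DESeq2, other normalizations, filters and cutoffs, a pseudocount of 1 and a length correction were alternatives. Exon length offsets in the fit and ratios of genes with at least 1000 counts were chosen after seeing the data. The members, lists and tests were chosen with earlier results of these data known. All 10 members and Gfi1b are named, and of each list the genes past a cutoff in both populations, plus up to 3 per population with the largest ratio change and at least 50 counts. For marker lists, sums, markers at 0 and a few single markers are given instead, and these were picked after their values were seen. Software was R 4.3.3, edgeR 4.0.16, DESeq2 1.42.0, Python 3.11.15, numpy 2.4.6, scipy 1.17.1, pandas 2.3.3 and matplotlib 3.10.9.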

Additional observations from a re-analysis of the deposited data

Results flagged for a closer look

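Tet3 and Asxl2 had KO/WT ratios above 1 in HSCs and below 1 in CD41low/CD9low HSCs, with counting intervals on opposite sides of 1. Subtracting the log2 ratio of HSCs from that of CD41low/CD9low HSCs gave -0.76 for Tet3 (counting interval -0.86 to -0.67) and -0.66 for Asxl2 (-0.77 to -0.54). After length correction the differences were -0.47 and -0.37. With 1 library per group the difference was not tested.

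Reads on no annotated feature, which enter no comparison of the members, were most frequent in KO HSCs, at 105.3 for every 100 reads on genes, against 80.0 in WT HSCs. The CD41low/CD9low libraries had 62.0 in WT and 60.1 in KO.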

How the results depend on the processing

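The fit compares the genotypes within each population through its population term. No paired analysis was possible because the labels give no replicate numbers, apart from this term. Leaving out a library leaves no residual degrees of freedom.

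Of the members, 1 (Asxl3) was below 0.6 in HSCs, and 0 were with at least 50 counts, with at least 1000 counts or with exon length correction, which all leave Asxl3 out. In CD41low/CD9low HSCs 0 were below 0.6, and 1 was with no filter (Asxl3) or with a cutoff of 1/1.5 (Uhrf1). The median log2 ratio of the 9 members besides Asxl3 in HSCs was 0.03 and turned to -0.08 with exon length correction. All genes above and below the cutoffs numbered 2248 and 1639 in HSCs, 1431 and 792 with at least 50 counts, 4354 and 2649 with no filter and 535 and 171 with at least 1000 counts. In CD41low/CD9low HSCs they numbered 1998 and 1788, 982 and 702 with at least 50 counts, 105 and 14 with at least 1000 counts, and 3121 above 1.5 with no filter. The genotype test called 80 genes higher and 46 lower, but 50 and 19 with at least 50 counts, 254 and 166 with no filter, 30 lower with DESeq2 and 93 lower with exon length offsets.

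With exon length offsets the genotype effect turned to -0.10 for Dnmt3a, -0.003 for Tet2, -0.13 for Tet3, -0.044 for Asxl1 and -0.017 for Asxl2, and the population effect to 0.022 for Dnmt1, 0.11 for Dnmt3a, 0.003 for Dnmt3b, 0.093 for Tet2 and 0.33 for Tet3. None of these effects was called. The cause of the length dependence was not tested. Of the other member effects 78 kept their direction and side of the threshold and 2 (Uhrf1) lost the call. Member ratios moved by more than their counting interval in 7 cases, all in HSCs with exon length correction, and by less in 161. The 161 is not a count of passed checks. Count filters and the changed lower cutoff do not enter a member's ratio, which could not move under them. Other normalizations shift all ratios of a pair by the same factor. Exon length correction differs by gene, and it moved 7 of the 9 ratios of members besides Asxl3 in HSCs. Those in CD41low/CD9low HSCs stayed within their intervals.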
